A study of Ictidomys tridecemlineatus with 15 samples.

Results

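Heat shock factor 1 (Hsf1) is the transcription factor that drives the cytosolic heat shock response, and 10 of its best-known chaperone targets are described here in a hypothalamic nucleus of the thirteen-lined ground squirrel, a hibernator. The members were chosen by symbol, and all 10 were present, each as 1 row, among 16993 genes of the deposited table: Hspa8, Hspa1b, Dnaja1, Dnajb1, Hsph1, Bag3, Hsp90aa1, Hsp90ab1, Stip1 and Chordc1. The tissue, the supraoptic nucleus, holds the large neurosecretory neurons that release vasopressin and oxytocin. It was cut by hand from coronal slices, so neurons, glia and vessels were sequenced together, in 15 libraries of 3 states with 5 biological replicates each. The active animals were not hibernating, while the torpor and IBA animals were, IBA being interbout arousal, when a hibernator rewarms for a while before it cools again. The labels name no genotype, treatment, age or sex, and do not say whether tissue of several animals was pooled in a library.

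HSP70 chaperones hold unfolded stretches of protein in a cycle of ATP hydrolysis that J-domain proteins start and nucleotide exchange factors end. Client proteins can then pass through the adaptor Stip1 to the HSP90 chaperones. When unfolded protein accumulates, as in heat, Hsf1 is released from chaperones, trimerises and raises transcription of this set, so that the chaperones restrain their own activator. Some members, such as Hspa8 and Hsp90ab1, are expressed constitutively in brain, while Hspa1b is the classical inducible form.

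Values are normalised CPM (counts per sequenced depth, scaled by the authors with a further factor per library), and state levels are means ± SD with n = 5. Whole reads recovered from these values numbered 15844561 to 26113341 per library. The members had between 75 reads (Hspa1b in torpor library 4) and 106995 reads (Hspa8 in active library 3). Changes are differences of mean log2(value + 1) ± SE, with two-sided adjusted p-values from limma-trend (Benjamini-Hochberg over 15501 tested genes). Active libraries served as the reference of both comparisons of hibernating states, so those 2 comparisons are not independent. Over all genes, torpor libraries 4 and 5 and active library 4 lay at the ends of the leading principal component, while torpor library 2 had the most extreme score on component 2. For the members and the named genes of the lists, some calls in torpor ended or began without torpor libraries 4 and 5, torpor library 2 or active library 4. Those are named beside the gene.

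In torpor, 6 of the 10 chaperone transcripts fell against the active state and none rose. They were Stip1, Chordc1, Dnaja1, Hspa1b, Hspa8 and Hsp90ab1. Of all genes tested, 9.74% were called lower in torpor and 9.73% higher. Every member had a log2 fold change below 0, with a median of −0.48 against 0.01 over all genes, of which 49.1% were below 0. In IBA, Hsp90aa1 and Stip1 fell, against 0.703% of all genes called lower, and again every member was below 0, with a median of −0.45. No member differed between torpor and IBA in limma at an adjusted p of 0.05, edgeR and DESeq2 called none either, and 1 member (Chordc1) had an unadjusted p under that value. In that comparison 2.94% of all genes were called in limma, 3.04% in edgeR and 6.7% in DESeq2, and 19.4% had an unadjusted p under 0.05.

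**Figure D1:**
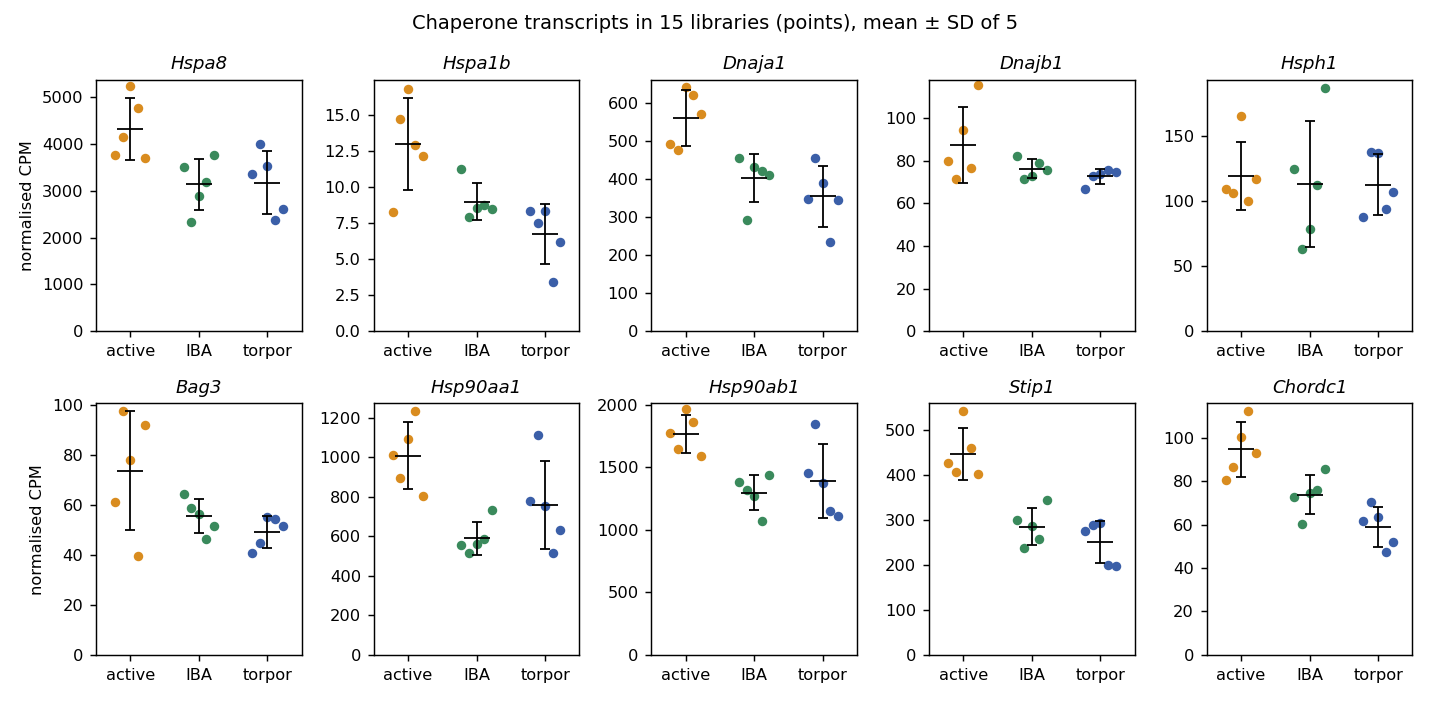
Normalised CPM (vertical axes, from 0) of the 10 chaperone transcripts in active, IBA and torpor libraries. Each point is 1 library and bars give the mean ± SD of 5; Stip1 and Dnaja1 libraries of both hibernating states all lie below the lowest active library, whereas Hsph1 overlaps throughout.

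The constitutive HSP70, Hspa8, which folds new proteins and strips clathrin from coated vesicles, stood at 3763, 4156, 5225, 4758 and 3692 normalised CPM in active libraries 1 to 5. In IBA it stood at 3499, 2342, 2879, 3182 and 3766, and in torpor at 3354, 4005, 3525, 2384 and 2607. In each hibernating state 4 of 5 libraries lay below the lowest active one, with IBA library 5 and torpor library 2 inside the active range. The log2 fold change was −0.46 ± 0.15 in torpor (adjusted p = 0.0431, limma) and −0.47 ± 0.15 in IBA (adjusted p = 0.113). The torpor call ended with any of 6 libraries left out, which were active libraries 2, 3 and 4 and torpor libraries 1, 4 and 5 (adjusted p from 0.0514 to 0.112). Without torpor libraries 4 and 5 together the change was −0.24 (adjusted p = 0.280). The call also ended in a fit of only the 10 torpor and active libraries. In a reference of another assembly, 3 small nucleolar RNA loci lie within Hspa8, so reads of both may have been counted together.

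Hspa1b, an inducible HSP70, was sparse. Active libraries held 8.23, 14.7, 16.8, 12.9 and 12.1 normalised CPM, IBA libraries 11.2, 7.91, 8.55, 8.74 and 8.45, and torpor libraries 8.31, 7.47, 8.30, 3.40 and 6.18. Torpor library 4 was the lowest of all 15, and active library 1 stood within the range of IBA and of torpor. In torpor Hspa1b fell by 0.87 ± 0.21 on the log2 scale (adjusted p = 0.00771, limma), to 6.73 ± 2.06 from 12.9 ± 3.18, and the fall of 0.60 without torpor libraries 4 and 5 still passed (adjusted p = 0.0448). In IBA its change of −0.46 ± 0.21 did not pass (adjusted p = 0.229).

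Hspa1a, a near-identical copy of Hspa1b and no member of the set, shares reads with it in many mammals, so the division of reads between the 2 rows is uncertain. Hspa1a stood at 55.3, 77.1, 53.3, 66.8 and 84.4 in active libraries, at 18.6, 28.1, 48.2, 29.3 and 57.2 in IBA and at 41.1, 1.28, 54.3, 24.6 and 36.8 in torpor. Torpor library 2 held only 26 Hspa1a reads, yet 152 Hspa1b reads. The change of Hspa1a in torpor, −1.61 ± 0.69, did not pass (adjusted p = 0.120, limma). Without torpor library 2 it was −0.80 (adjusted p = 0.0624), and without torpor libraries 4 and 5 it was −1.95 (adjusted p = 0.139). Summed over both rows, which leaves their division aside, the level was 80.3 ± 13.99 in active, 45.3 ± 15.2 in IBA and 38.4 ± 20.7 in torpor. The summed active libraries ranged from 63.5 to 96.6 and those of torpor from 8.74 to 62.6, without overlap. In IBA the sum ranged from 29.8 to 65.6, with IBA library 5 inside the active range. The sum was formed after its values were seen and was not tested.

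Among the partners of HSP70, Dnaja1, a J-domain protein that delivers clients and stimulates ATP hydrolysis, stood at 492, 477, 641, 622 and 572 in active libraries. It stood at 454, 293, 432, 422 and 409.6 in IBA and at 348, 454, 389, 236 and 346 in torpor. All 10 hibernating libraries lay below every active one. In torpor it fell by 0.68 ± 0.15 (adjusted p = 0.00583, limma), and by 0.49 without torpor libraries 4 and 5 (adjusted p = 0.0323). In IBA the change of −0.49 ± 0.15 did not pass (adjusted p = 0.107). Groups that do not overlap on the lower side made up 6.79% of all genes in torpor and 3.44% in IBA. Members of that kind numbered 3 in torpor (Dnaja1, Stip1 and Chordc1) and 4 in IBA (Dnaja1, Stip1, Hsp90aa1 and Hsp90ab1).

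Dnajb1, a J-domain protein that heat induces in mammalian cells, did not pass in either comparison with the authors' scaling. Active libraries stood at 79.5, 71.2, 94.5, 76.4 and 115, IBA libraries at 82.1, 71.4, 72.6, 78.9 and 75.5, and torpor libraries at 66.7, 72.8, 73.8, 75.4 and 74.4. The groups overlapped, and the active libraries were the most spread (SD 17.9, against 4.44 in IBA and 3.46 in torpor). The log2 fold change in torpor was −0.24, with a 95% interval from −0.47 to −0.01, and did not pass (adjusted p = 0.128, limma), whereas with scaling by library size alone it was −0.32 and passed (adjusted p = 0.0387). In IBA it was −0.18, with an interval from −0.41 to 0.05 (adjusted p = 0.391).

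Hsph1, a large HSP70 relative that releases ADP from HSP70, did not pass in either comparison. It stood at 109, 106, 165, 100.1 and 117 in active libraries, at 125, 63.2, 78.2, 113 and 187 in IBA and at 88.0, 137, 137, 93.8 and 107 in torpor. IBA libraries covered the widest range, below and above all others. The change was −0.09 in torpor (95% interval from −0.59 to 0.42) and −0.15 in IBA (from −0.66 to 0.35), with adjusted p = 0.830 and 0.762 (limma). These intervals include falls as large as those of Hspa8 and Hsp90aa1 in torpor. A locus of a long noncoding RNA overlaps Hsph1 in the reference, so its reads may not be its own alone.

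Bag3, the exchange factor that directs HSP70 clients to autophagy, stood at 61.1, 97.8, 78.1, 39.7 and 92.0 in active libraries. It stood at 64.3, 58.8, 56.3, 46.5 and 51.7 in IBA and at 40.6, 44.8, 55.2, 54.6 and 51.7 in torpor. Active library 4 was the lowest of all 15, and the other active libraries stood above every torpor library. The torpor change of −0.51 ± 0.19 did not pass (adjusted p = 0.0660, limma), but passed without active library 4 (−0.71, adjusted p = 0.00307). Both count-based tests on the recovered reads also called it (adjusted p = 0.0368 in edgeR and 0.0157 in DESeq2). In IBA the change was −0.34 ± 0.19 (adjusted p = 0.327).

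The HSP90 genes had lower means in IBA than in torpor. Hsp90aa1, the inducible HSP90, stood at 1009.9, 898, 1095, 1237 and 804 in active libraries, at 556, 518, 562, 586 and 734 in IBA and at 778, 1114, 754, 519 and 630.1 in torpor. Every IBA library lay below every active one, while torpor library 2 stood among the active libraries. In IBA it fell by 0.76 ± 0.17 (adjusted p = 0.0345, limma), to 591 ± 83.4 from 1009 ± 169. The call ended when active library 1, 2, 3 or 4 or IBA library 1, 2, 3 or 4 was left out (adjusted p from 0.0539 to 0.0906), with the change between −0.69 and −0.80. In torpor the change of −0.44 ± 0.17 did not pass (adjusted p = 0.0699), and passed without active library 5 (adjusted p = 0.0496) or torpor library 2 (−0.59, adjusted p = 0.00835). Without torpor libraries 4 and 5 it was −0.20 (adjusted p = 0.403). Torpor and IBA differed by 0.32 ± 0.17, which did not pass (adjusted p = 0.300).

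Hsp90ab1, the constitutive HSP90, stood at 1772, 1645, 1964, 1859 and 1589 in active libraries, at 1383, 1315, 1272, 1074 and 1435 in IBA and at 1456, 1844, 1373, 1149 and 1111 in torpor. All IBA libraries and 4 torpor libraries lay below the lowest active one, and torpor library 2 lay within the active range. It fell by 0.37 ± 0.12 in torpor (adjusted p = 0.0439, limma). That call ended with any of 8 libraries left out, active libraries 1 to 4 and torpor libraries 1, 3, 4 and 5 (adjusted p from 0.0505 to 0.109), and in edgeR (adjusted p = 0.0574), and without torpor libraries 4 and 5 the change was −0.19 (adjusted p = 0.286). The torpor call also ended in a fit of only the 10 torpor and active libraries. In IBA the change was −0.45 ± 0.12 (adjusted p = 0.0729), and it passed in a fit of the 10 IBA and active libraries (adjusted p = 0.0313) and in DESeq2 (0.0236). Torpor and IBA differed by 0.08 ± 0.12, which did not pass (adjusted p = 0.775, limma).

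Stip1, the adaptor that binds HSP70 and HSP90 at once, changed most clearly. It stood at 426, 405, 541, 460.5 and 401 in active libraries, at 301, 237, 286, 258 and 343 in IBA and at 276, 288, 292, 200.5 and 198 in torpor. No hibernating library reached the active range. It fell by 0.84 ± 0.13 in torpor (adjusted p = 5.81e-04, limma), a level 0.557 times the active one on this scale, and by 0.65 ± 0.13 in IBA (adjusted p = 0.0242). The torpor call held whichever library was left out (adjusted p at most 0.00185) and without torpor libraries 4 and 5 (−0.64, adjusted p = 0.00452). The IBA call ended without active library 3 or 4 or IBA library 3 or 4 (adjusted p from 0.0555 to 0.0792).

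Chordc1, a zinc-binding co-chaperone of HSP90, stood at 80.5, 86.4, 100.4, 112 and 93.0 in active libraries, at 72.5, 60.2, 74.7, 76.0 and 85.3 in IBA and at 61.5, 70.4, 63.5, 47.2 and 52.0 in torpor. Its state means were stepwise, with IBA between active and torpor, and only IBA library 5 of the hibernating libraries entered the active range. In torpor it fell by 0.68 ± 0.12 (adjusted p = 0.00132, limma), and by 0.52 without torpor libraries 4 and 5 (adjusted p = 0.0126). In IBA the change was −0.35 ± 0.12 (adjusted p = 0.129). Torpor lay below IBA by −0.32 ± 0.12, which did not pass over all genes (adjusted p = 0.146).

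**Figure D2:**
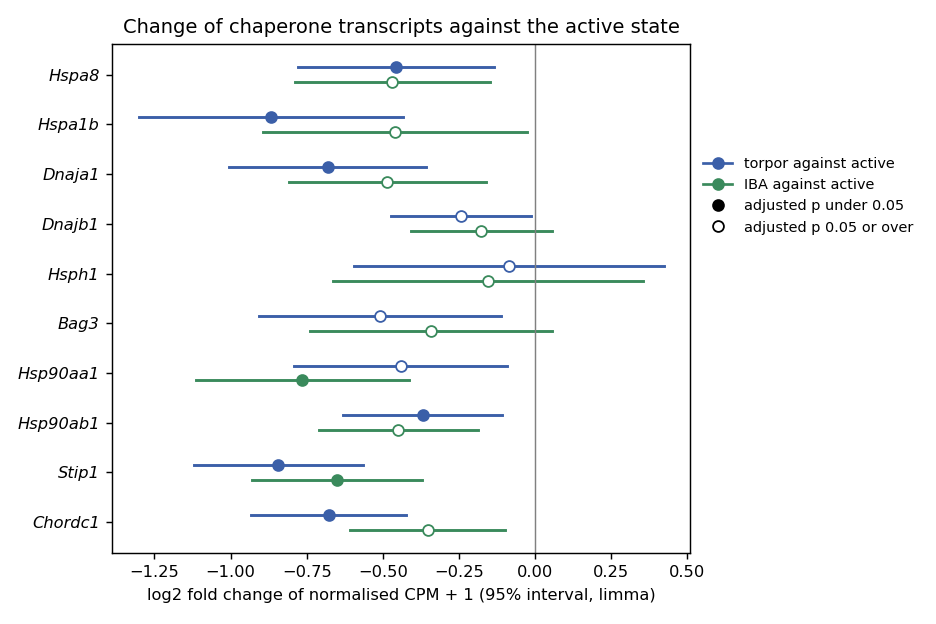
Log2 fold change of each chaperone transcript against the active state (horizontal axis, limma, with 95% intervals) in torpor (blue) and IBA (green). Filled points had an adjusted p under 0.05, and all 20 points lie below 0. Points of Hsp90aa1, Hsp90ab1, Hspa8 and Hsph1 are lower in IBA than in torpor, and those of the other members are lower in torpor. No member differed between torpor and IBA at an adjusted p of 0.05 (limma).

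In the authors' deposited table, which gives a joint test of the 3 states, 6 of the 10 members have a false discovery rate under 0.05, against 14.6% of all its genes. These are Stip1, Chordc1, Dnaja1, Hsp90aa1, Hspa1b and Hsp90ab1. Hspa8 has a false discovery rate of 0.0631 in the authors' deposited table and Bag3 one of 0.0772, with Dnajb1 at 0.189 and Hsph1 at 0.948.

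Ratios within a library do not depend on how libraries were scaled, and 3 of them were formed after the values were seen. Stip1 over Hspa8 was 0.104 ± 0.00712 in active, 0.0917 ± 0.00856 in IBA and 0.0794 ± 0.00523 in torpor, with every torpor library below every active one. The log2 difference between torpor and active was −0.39, with p = 0.00794 in a two-sided exact permutation test, the smallest it can give. Adjusted over the 9 ratio tests this is 0.0714, which did not pass. With 5 libraries per state, a single ratio cannot pass this adjustment by its own p-value, however well the groups separate. Hspa1b over Hspa8, an inducible against the constitutive HSP70, was lower in torpor than in the active state by 0.52 on the log2 scale. It was lower than in IBA by 0.49 (exact permutation p = 0.0317 for each, 0.0714 adjusted). This ratio leaves out Hspa1a, whose mean was higher than that of Hspa1b in every state, and the division of reads between them is uncertain. Summed over both rows the level was already lower in IBA (45.3, against 80.3 in active and 38.4 in torpor). The ratio of that sum to Hspa8 was not formed. Hsp90aa1 over Hsp90ab1 was 0.569 ± 0.0591 in active, 0.459 ± 0.0671 in IBA and 0.541 ± 0.0564 in torpor, and the difference between IBA and active of −0.32 had an exact permutation p of 0.0317 (0.0714 adjusted). None of the 9 comparisons passed after adjustment, and the adjustment does not cover the choice of the 3 ratios after the values were seen.

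Libraries of the same state differed from each other in most members together. IBA library 2 was the lowest IBA library for 8 of the 10 members, and torpor library 4 the lowest torpor library for 5. Torpor library 2 was the highest torpor library for 6 members, active library 3 the highest active library for 6, and IBA library 5 the highest IBA library for 6. After removal of the state means, 35 of the 45 pairs of members had a Pearson r above 0 over the 15 libraries, with a median of 0.53. The highest was 0.91 between Hspa8 and Stip1. Bag3 and Dnajb1 did not follow the others: their r with the mean of the other 9 members was −0.20 and 0.12, against 0.63 to 0.91 for the remaining members. These values describe libraries that share depth and tissue makeup within each point. Pairs of other genes were not measured, so the count and median of r have no background beside them.

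**Figure D3:**
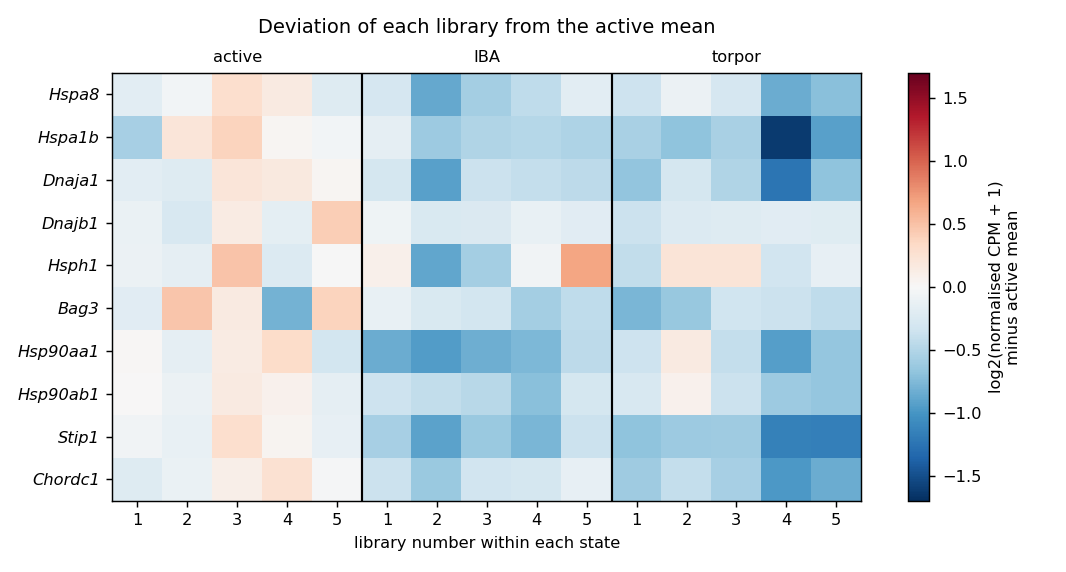
Deviation of log2(normalised CPM + 1) from the active mean of each gene (colour, blue below and red above) for 10 chaperone transcripts (rows) in 15 libraries (columns, numbered within each state). IBA library 2 and torpor libraries 4 and 5 are the darkest columns, with a median over members of −0.75, −0.89 and −0.67.

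By the same measure the other genes most like the mean of the 10 members were Uchl3, a ubiquitin hydrolase, Eif2b3, a subunit of the initiation factor eIF2B, and Ttc4, a co-chaperone of HSP90. Their Pearson r was 0.96 each over 15 libraries, with Spearman rho of 0.96, 0.99 and 0.94. They were followed by Brcc3, Rpap3, Cfl2, Acp1, Slc25a14, Tbc1d15 and Prkra, with r from 0.93 to 0.95. With all 15 libraries none of these 10 genes passed in any of the 3 comparisons of states. The smallest adjusted p was 0.0694 (limma), for Uchl3 in torpor against active, with a log2 fold change of 0.31. Without torpor library 2, Ttc4 passed in torpor against active (−0.40, adjusted p = 0.0411, limma). Refits of the other genes are not given.

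Markers of oligodendrocytes, the myelin-forming cells, also differed between libraries of the same state. Of 13 markers 12 were in the table, none was at 0, and 9 rose in torpor while none fell. Over all genes, 9.73% were called higher in torpor and 9.74% lower. Their summed level lay between 2994 and 5375 normalised CPM in active libraries, between 3671 and 9523 in IBA, and between 4328 and 14629 in torpor. No marker passed in IBA in limma or edgeR, while 6 had an unadjusted p under 0.05 and DESeq2 called 3. Of all genes in IBA, 19.7% had such an unadjusted p and DESeq2 called 5.49%. IBA library 2, the lowest in chaperones, was the highest IBA library for these markers, and torpor libraries 4 and 5, at 12327 and 14629, were the highest of all. Active library 5, at 5375 the highest active library for them, had a median chaperone deviation of −0.03 from the active mean. A correlation of marker and chaperone levels was not computed. Without torpor libraries 4 and 5, 3 of the 12 markers were called higher, beside 7.09% of all genes. Mbp was also lost without active library 4. In whole tissue, fewer cells of a type and less RNA per cell cannot be told apart.

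When the mean log2 level of these markers entered the limma fit as a covariate, no member was called in either comparison with active; edgeR and DESeq2 were not run with it. In that fit the share of all genes called fell to 4.88% in torpor and 0.116% in IBA. The members' median was −0.34 in torpor and −0.26 in IBA. In torpor, Stip1 stood at −0.42 (adjusted p = 0.111, limma), Chordc1 at −0.38 (0.165), Hspa1b at −0.48 (0.342) and Dnaja1 at −0.31 (0.374), while Hspa8, Hsp90aa1 and Hsp90ab1 lay between −0.05 and 0.03. In IBA, Hsp90aa1 stood at −0.52 (adjusted p = 0.204) and Stip1 at −0.41 (0.163). The markers differ between the states themselves, so marker level and state cannot be told apart in this fit.

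**Figure D4:**
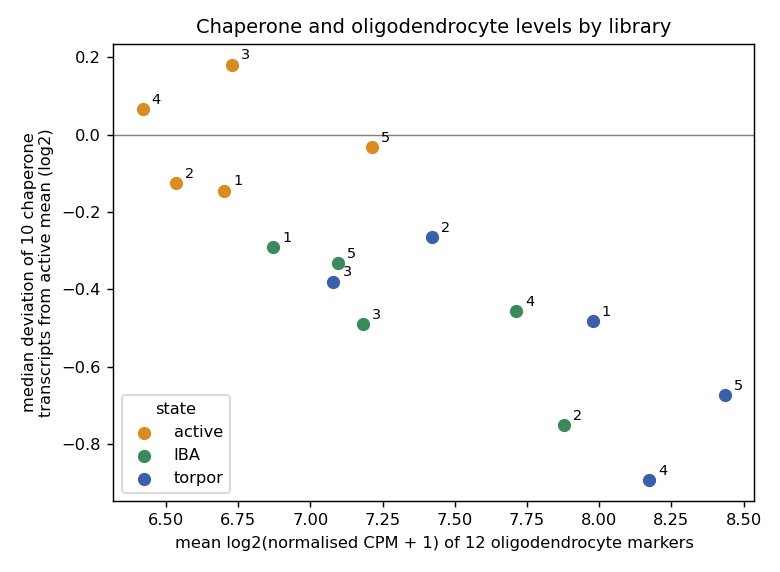
Median deviation of the 10 chaperone transcripts from their active mean (vertical axis, log2) against the mean log2 level of 12 oligodendrocyte markers (horizontal axis) for 15 libraries, numbered within each state. Within IBA and torpor the library with the lowest chaperones (IBA library 2 and torpor library 4) is among the highest in markers, and all 10 hibernating libraries lie below the 5 active ones.

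Other cell types were read the same way. Of 8 tested astrocyte markers 1, Gfap, fell in torpor, of 9 endothelial markers 3 fell, of 8 microglia markers 2 rose and of 10 neuron markers 2 rose, beside 9.74% of all genes called lower and 9.73% higher. Without torpor libraries 4 and 5 neither neuron marker was called and 1 of the 2 microglia markers was. Without torpor library 2, 5 of the 8 microglia markers rose, and of the neuron markers 2 rose and 1 fell. Over all genes 11.1% were then called higher and 10.3% lower. Without active library 4, 3 microglia and 2 neuron markers rose, beside 7.64% of all genes. The endothelial marker Tek was lost without torpor library 2 or active library 4. Of 12 markers of the large neurosecretory neurons, all in the table, 1 rose and 2 fell, of which 1 call was left without torpor libraries 4 and 5, and Gal and Nos1 had a median under 1. In IBA none of these 5 lists had a call in limma or edgeR. DESeq2 called 1 neuron, 2 endothelial and 1 microglia marker, beside 5.49% of all genes. Unadjusted p was under 0.05 for 3 astrocyte, 3 neuron, 2 endothelial, 2 microglia and 1 neurosecretory marker, and for 19.7% of all genes. The summed astrocyte markers lay between 9805 and 17644 in active libraries, between 6814 and 12405 in IBA and between 7143 and 9999.7 in torpor. The summed endothelial markers lay between 323 and 529 in active libraries, between 351 and 429.6 in IBA and between 277 and 378 in torpor. The mean log2 level of 9 microglia markers was 4.17, 3.70, 4.18, 4.58 and 4.38 in torpor libraries 1 to 5. The members' median deviation there was −0.48, −0.27, −0.38, −0.89 and −0.67. In IBA, library 4 was the highest in microglia markers (4.35), above library 2 (4.17). Only the oligodendrocyte list was used as a covariate. Vasopressin and oxytocin are not analysed here. The part of any of these cell types in the chaperone values was not tested, other than by the covariate given above.

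The wider network was read from 7 lists of 83 tested genes, of which 13 rose and 14 fell in torpor, 4 fell in IBA, and 2 rose and 3 fell between torpor and IBA. Over all genes, 9.73% were called higher and 9.74% lower in torpor, and 0.703% lower in IBA. Between torpor and IBA 0.961% of all genes were called higher and 1.97% lower. These shares also stand beside the counts of each list below. Without torpor libraries 4 and 5 the network counts in torpor were 9 higher and 10 lower, beside 7.09% and 7.07% of all genes. Without active library 4 they were 9 and 9, beside 7.64% and 7.83%. With the oligodendrocyte covariate the torpor calls of limma numbered 2 among HSP90 co-chaperones, 1 in the chaperonin list, 1 in the mitochondrial list and 2 among other heat-inducible genes. None remained called among heat shock factors and regulators, other HSP70 genes and small heat shock proteins, Hsf1 included. Of 9 tested heat shock factors and regulators, 1 rose and 2 fell in torpor. Hsf1 itself rose by 0.61 ± 0.21 in torpor, to 58.3 ± 16.5 from 37.8 ± 9.80 (adjusted p = 0.0482, limma), and its change in IBA was 0.56 ± 0.21 (adjusted p = 0.159). The torpor call of Hsf1 ended without torpor libraries 4 and 5 (0.39, adjusted p = 0.255, limma) and without active library 4 (0.43, adjusted p = 0.104). Sirt1, a deacetylase that prolongs DNA binding of Hsf1 in human cells, fell by 0.82 ± 0.18 in torpor (adjusted p = 0.00540). Ep300, an acetyltransferase, fell by 0.49 ± 0.16 (adjusted p = 0.0339), and also stood below IBA by −0.60 ± 0.16 (adjusted p = 0.0450). Its call against active ended without torpor libraries 4 and 5, torpor library 2 or active library 4 (adjusted p from 0.0506 to 0.0627, limma).

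Of 15 tested HSP90 co-chaperones beside the members, 4 rose and 2 fell in torpor, with a median of −0.05. Fkbp5, an immunophilin that glucocorticoids induce, fell by 1.03 ± 0.20 (adjusted p = 0.00232, limma), and Ppid, a cyclophilin of HSP90 complexes, by 0.79 ± 0.14 (adjusted p = 0.00128). Ppid was also the only one of this list called in IBA, where it fell by 0.61 ± 0.14 (adjusted p = 0.0405). Cdc37, which loads protein kinases onto HSP90, moved the other way, to 244 from 157 in torpor (0.64 ± 0.10, adjusted p = 5.74e-04), and all its torpor libraries lay above the active ones. Fkbp8, a membrane-anchored immunophilin, rose by 0.78 ± 0.19 (adjusted p = 0.0109), but not without torpor libraries 4 and 5 (0.51, adjusted p = 0.0820).

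Of 17 other genes of the HSP70 system, 3 rose and 2 fell in torpor, with a median of 0.14. Those that rose were Bag1, Bag4 and Hspbp1, which act on nucleotide exchange of HSP70, by 0.32 ± 0.10, 0.39 ± 0.11 and 0.43 ± 0.14 (adjusted p = 0.0340, 0.0160 and 0.0329, limma). Without torpor libraries 4 and 5 none of these 3 calls was left (0.28, 0.32 and 0.33, adjusted p = 0.123, 0.0855 and 0.167), and without active library 4 Bag1 and Hspbp1 were lost (adjusted p = 0.0836 and 0.0846). Hspa2, an HSP70 best known from testis, fell by 0.90 ± 0.25 (adjusted p = 0.0199). None of this list passed in IBA in limma, edgeR or DESeq2, with 2 genes at an unadjusted p under 0.05, beside 19.7% of all genes.

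Of 5 tested small heat shock proteins, which hold unfolded proteins without ATP, 1 rose and 2 fell in torpor. Cryab, a small heat shock protein of glia and lens, fell by 0.50 ± 0.16 (adjusted p = 0.0315, limma) and Hspb2 by 0.88 ± 0.26 (adjusted p = 0.0241), while Hspb6 rose by 0.59 ± 0.16 (adjusted p = 0.0152). Cryab was lost without torpor libraries 4 and 5, torpor library 2 or active library 4 (adjusted p from 0.0629 to 0.1001, limma), Hspb6 without torpor libraries 4 and 5 (0.0543) and Hspb2 without active library 4 (0.0625). Hspb1, a heat-inducible member, had a change of −0.63 ± 0.22 that did not pass (adjusted p = 0.05001), with means of 1.78 in torpor and 3.21 in active. Without torpor libraries 4 and 5 the change of Hspb1 was −0.89 and passed (adjusted p = 0.0204, limma). In IBA none passed in limma or edgeR, DESeq2 called 3, and all 5 had an unadjusted p under 0.05. Over all genes in IBA, DESeq2 called 5.49%, and 19.7% had an unadjusted p under 0.05.

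In the chaperonin and the mitochondrial chaperones no gene fell in torpor. Of 14 tested subunits of the cytosolic chaperonin and prefoldin, which fold actin and tubulin, only Pfdn2 passed in torpor, with a rise of 0.73 ± 0.12 (adjusted p = 7.60e-04, limma), and the list's median was −0.02. Of 10 mitochondrial chaperones and proteases, 2 rose and none fell, with a median of 0.06. Clpp, the matrix protease, rose by 1.29 ± 0.16, to 60.0 from 23.6 (adjusted p = 1.29e-04), and Dnaja3, a mitochondrial J-domain protein, by 0.44 ± 0.14 (adjusted p = 0.0346). The call of Dnaja3 ended without torpor libraries 4 and 5, torpor library 2 or active library 4 (adjusted p from 0.0560 to 0.0879, limma).

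A mixed list of 13 other genes, put together as heat-inducible, had 1 rise and 6 falls in torpor, and 3 falls in IBA. For Banp, Rgs2 and Fam46a, which make up 3 of the 6 falls, induction by heat is uncertain, and Banp is also 1 of the 3 falls in IBA. Serpinh1, the collagen chaperone under Hsf1 control, fell by 0.99 ± 0.17 in torpor (adjusted p = 0.00124, limma) and by 0.77 ± 0.17 in IBA (adjusted p = 0.0378). Dnajb9, a J-domain protein of the endoplasmic reticulum, fell by 0.73 ± 0.11 in IBA (adjusted p = 0.00399) and by 0.43 ± 0.11 in torpor (adjusted p = 0.0115), where the call ended without torpor libraries 4 and 5 (adjusted p = 0.0508). Banp, a DNA-binding nuclear protein, had a change of −1.93 ± 0.16 in torpor and −0.81 ± 0.16 in IBA (adjusted p = 1.46e-06 and 0.0204).

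**Figure D5:**
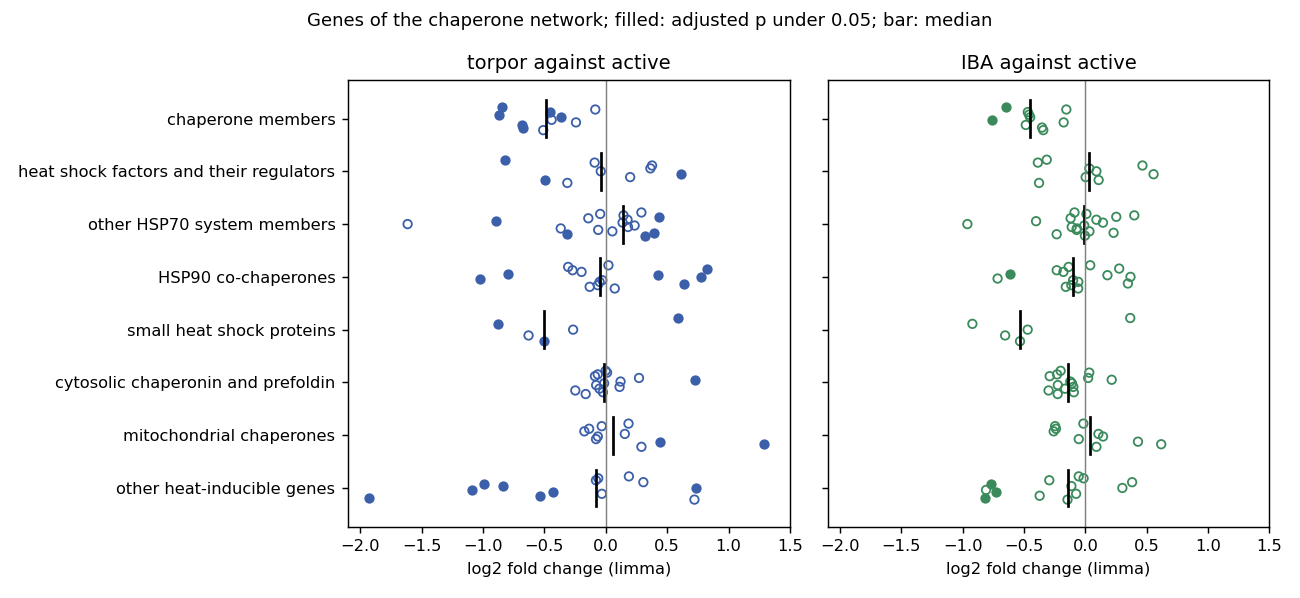
Log2 fold change (horizontal axes, limma) of each tested gene in the chaperone set and in 7 lists of its network, for torpor against active (left) and IBA against active (right). Filled points had an adjusted p under 0.05 and black bars mark medians; the list of other heat-inducible genes holds 3 genes of uncertain heat induction. The chaperone set (median −0.48 and −0.45) and the 5 small heat shock proteins (−0.50 and −0.53) have the lowest medians in both.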

How the data were processed

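The submitters' processing notes, with no order of steps, list R 4.2.1 with edgeR 3.38.4, Subread 2.0.1 (featureCounts), STAR 2.7.7a and Trimmomatic 0.39. For build, annotation and strand setting, the entry is "not given in the sources used here". The authors deposited a signal per library (normalised CPM). Columns of log2 fold change, an F score, p-value and false discovery rate come from the authors' joint test, per the file headers.

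Each library's values were whole multiples of 1 step: 100% lay within 0.1 read of a whole number, so reads were recovered. Genes that reached 1 normalised CPM in 5 or more libraries (15501) were tested with limma 3.58.1 (trend, robust; R 4.3.3) on log2(value + 1), all 15 libraries in 1 fit without covariates, at an adjusted p of 0.05. A log2 change on this scale understates changes of low genes. edgeR 4.0.16 and DESeq2 1.42.0 were run on the recovered reads, with the authors' scaling. The procedure was tested on simulated data.

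The members, lists and alternatives were chosen with earlier results of these data known, so counts are descriptions and no list was tested. Named genes are the members, up to 4 genes per list and comparison with the smallest adjusted p, and the 10 genes of mean log2 level of at least 2 most like the members' mean. The ratios and Hspa1a were added after values were seen. Gene names were looked up in a RefSeq table of another assembly (mIctTri1.hap1), which held 9 of 10 members. Hspa1b was not among them.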

Additional observations from a re-analysis of the deposited data

Results flagged for a closer look

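Of 30 groups of 5 libraries (10 members in 3 states), 3 held a library far from the others, with a gap to its nearest neighbour that took up more than 0.71 of the group's range. Chance gives about 1 in 20 such groups. Hspa1b stood at 11.2 normalised CPM in IBA library 1, against 7.91 to 8.74 in the other IBA libraries. Dnaja1 stood at 293 in IBA library 2, against 409.6 to 454 in the others, and that library was also the lowest IBA library for most other members. Hsph1 stood at 165 in active library 3, against 100.1 to 117 in the others.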

How the results depend on the processing

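Depth and spread limit changes of low genes such as Hspa1b. Members called in torpor against active numbered 6, beside 19.5% of all genes. With 1 library left out they numbered from 4 to 7, beside 14.7% to 21.4% of all genes. Without torpor libraries 4 and 5 they numbered 4 (14.2% of all genes), with library size scaling 9 (21.4%) and in DESeq2 7 (24%). In a fit of only the 10 torpor and active libraries they numbered 4 (14.8%), with Hspa8 and Hsp90ab1 lost. With the oligodendrocyte marker level as a covariate the count was 0 (4.88%). In IBA against active 2 members were called, beside 1.3% of all genes, and from 0 to 2 with 1 library left out (0.168% to 1.05%). DESeq2 called 4 (5.49% of all genes), and the count was 0 with the marker covariate (0.116%) and 0 with a replicate block (0.239%). A fit of only the 10 IBA and active libraries called 3 (2.48%). Between torpor and IBA the count was 0, beside 2.94% of all genes. It was 1 with library size scaling (Chordc1, −0.41, adjusted p = 0.0407, limma), beside 5.53% of all genes. With the marker covariate Hspa8 in torpor turned to 0.026. That fit also had fewer residual degrees of freedom, and the cause of the lost calls was not tested.

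Replicate numbers did not pair the libraries: deviations of same-numbered libraries had r from −0.317 to 0.203, over 0.1 in 3 of 15 pairs, and a library was closest to its own number in 6 of 30 cases. With the replicate block 4 members were called in torpor, and the genes called were 2285 in torpor and 37 in IBA, against 3018 and 202 without it. Over all genes called in IBA, the marker covariate left 18 and DESeq2 gave 851. In torpor, library size scaling moved the median of all genes to −0.07, and the members' median to −0.56. Of 620 alternative values of the members' single changes, 22 had the other sign, of which 1 belonged to a called change, Hspa8 above. The other 21 belonged to changes that did not pass. Hsph1 in torpor against active stood at 0.39 with the marker covariate and 0.0097 without torpor libraries 4 and 5, with a range from −0.16 to 0.036 with 1 library left out. Hsph1 in IBA against active stood at 0.12 with the covariate and between −0.36 and 0.028 with 1 library left out. Between torpor and IBA, library size scaling gave −0.080 for Hspa8, −0.021 for Hsph1 and −0.011 for Hsp90ab1, and Hsph1 stood at −0.0074 in edgeR and −0.0073 in DESeq2. With 1 library left out that comparison ranged from −0.089 to 0.11 for Hspa8, from −0.11 to 0.27 for Hsph1 and from −0.029 to 0.15 for Hsp90ab1. Stip1 stood at 0.013 there without torpor libraries 4 and 5.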
